A study of Mus musculus with 14 samples.

Results

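Most of the genes described here encode receptors with which macrophages and other innate immune cells sense microbes, immune complexes and glycans. They were chosen by name, so that a few members, such as Clec16a and Clec11a, encode no such receptor, and "receptor genes" stands below for the whole set. They were all protein-coding genes of the liver count table whose names begin with Tlr, Clec or Fcgr and a digit, or with Cd300 or Siglec, together with Fcer1g, and without the Kupffer cell gene Clec4f. The rule gave 64 genes of 54532 in the table, of which 22046 were protein-coding, and it used no measured value. RNA-Seq was done on whole livers of mice bearing a pancreatic tumor and on cultured pancreatic stellate cells (PSCs). Livers were taken 20 days after 100000 KPCY cells, mouse pancreatic cancer cells with a yellow fluorescent tracer, had been placed in the pancreatic tail of mice aged 8 to 12 weeks. There were 2 WT livers, 3 TRPV4-KO livers and 3 livers of WT mice given GSK219. TRPV4-KO mice lack the calcium channel TRPV4 in every tissue, whereas the injected tumor cells still carried it. GSK219 (GSK2193874) is a TRPV4 antagonist and was given by daily gavage at 10 mg/kg. By the Methods, the WT mice of the study carried floxed Piezo1 alleles, and it is not stated whether they received vehicle. All 8 mice carried a tumor, so there was no liver of a tumor-free mouse to compare with. PSCs, the fibrogenic cells of the pancreas, came from 3 preparations, each treated with the PIEZO1 agonist Yoda1 at 25 μM and with its solvent DMSO.

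Toll-like receptors (TLRs) bind microbial products, some at the cell surface and others, such as the receptors of nucleic acids, inside endosomes, and signal through adaptors such as MyD88. Activating Fc receptors and many C-type lectins of the Dectin-2 group have no signaling tail of their own and pair with the adaptor FcRγ, encoded by Fcer1g, whose ITAM motif recruits the kinase Syk. Inhibitory receptors such as Fcgr2b, Cd300a, Clec12a and Siglece carry ITIM motifs, which recruit phosphatases. In the liver, many of these receptors are carried by Kupffer cells, the resident macrophages, while Fcgr2b, Clec4g and Clec14a are known from endothelium.

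Total counts per liver library ranged from 15567031 to 17395299. Levels are given as CPM, read counts scaled to library size with TMM factors, and levels of different genes were compared only as CPM per kilobase (kb) of gene length. Trpv4 had 43 and 53 counts in the WT livers, 15, 5 and 23 in the TRPV4-KO livers and 20, 30 and 36 in the GSK219 livers, so the 3 TRPV4-KO livers held fewer counts than either WT liver but were not without them. Xist reads marked 1 liver of each group (WT 1, TRPV4-KO 3 and GSK219 3) and Y-linked reads the other 5, so both sexes were in every group. TRPV4-KO 3 stood nearer to WT than the other TRPV4-KO livers in many of the genes below. Of the 64 receptor genes, 44 passed the filter on low counts and were tested among 15118 genes, and each of the 44 also reached the level of the filter in at least 2 livers outside WT. The other 20 had at most 18 counts in any liver, and 4 of them, Clec18a, Clec3a, Cd300ld2 and Siglec15, had none. A single liver with 0 counts allows up to 3 counts, by counting error only.

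The stretch of the genome around the start of 6 of these genes is printed here, because the promoters of the group held a short purine-rich motif more often than other promoters did. Letters are RefSeq sequence of build GRCm38.p6, from 150 bases before to 30 bases after the annotated start, 5′ to 3′ on the strand of the gene. Capitals mark GAGGAA, its longer form GAGGAAGT, a form bound by the myeloid transcription factor PU.1, and the core of an interferon-stimulated response element (ISRE), which is GAAA, any 2 bases and GAAA again, each on either strand. Fcer1g is shown as the shared adaptor, Fcgr1, Fcgr4, Cd300lf and Tlr1 as receptors whose WT livers lay above all TRPV4-KO livers, and Tlr9 as a receptor whose WT and TRPV4-KO livers overlapped.
Fcer1g, chr1:171234320-171234499, minus strand: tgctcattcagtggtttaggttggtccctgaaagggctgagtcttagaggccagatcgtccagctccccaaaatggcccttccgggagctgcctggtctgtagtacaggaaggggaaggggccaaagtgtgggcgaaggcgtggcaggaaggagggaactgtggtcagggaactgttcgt
Fcgr1, chr3:96293940-96294119, minus strand: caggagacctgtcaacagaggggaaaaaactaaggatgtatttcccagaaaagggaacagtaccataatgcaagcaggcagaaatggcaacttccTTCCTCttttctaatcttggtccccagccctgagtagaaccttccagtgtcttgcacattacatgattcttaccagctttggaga
Fcgr4, chr1:171018776-171018955, plus strand: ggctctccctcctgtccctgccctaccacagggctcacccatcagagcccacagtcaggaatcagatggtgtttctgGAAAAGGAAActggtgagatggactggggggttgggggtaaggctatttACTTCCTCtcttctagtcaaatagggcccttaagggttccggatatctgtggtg
Cd300lf, chr11:115133963-115134142, minus strand: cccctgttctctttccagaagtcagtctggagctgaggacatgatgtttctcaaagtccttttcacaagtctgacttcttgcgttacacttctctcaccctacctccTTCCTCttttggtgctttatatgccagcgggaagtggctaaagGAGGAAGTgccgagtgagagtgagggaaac
Tlr1, chr5:64933529-64933708, minus strand: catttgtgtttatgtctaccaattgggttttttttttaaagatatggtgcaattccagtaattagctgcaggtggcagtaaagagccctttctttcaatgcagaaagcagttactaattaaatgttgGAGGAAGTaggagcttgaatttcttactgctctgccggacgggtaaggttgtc
Tlr9, chr9:106222448-106222627, plus strand: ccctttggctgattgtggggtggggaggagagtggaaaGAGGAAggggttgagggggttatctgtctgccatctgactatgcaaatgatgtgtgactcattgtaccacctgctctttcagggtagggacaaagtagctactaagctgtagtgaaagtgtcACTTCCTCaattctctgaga

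A promoter sequence of 300 bases, from 250 before to 50 after the start, was available for 52 of the 64 genes. GAGGAA was found in 33 of these 52 genes (63.5%), against 31.3% of the 27025 genes with a promoter sequence. The longer GAGGAAGT, every match of which is also a match of GAGGAA, was found in 9 of 52 (17.3%), against 3.69% of all genes, and the ISRE core in 8 of 52 (15.4%), against 3.99%. In Cd300lf the GAGGAAGT match began at the first transcribed base, and a second GAGGAA lay on the other strand with its leftmost base at -43. In Fcgr4 the GAGGAAGT match lay at -24 and in Tlr1 at -23 from the start, and Fcgr4 also held the ISRE core at -73. Fcgr1 held GAGGAA alone, at -55. Fcer1g held none of the motifs in its 300 bases. Tlr9 held GAGGAAGT as well, at base 11 after the start, and its WT and TRPV4-KO livers overlapped. The motifs were chosen after the values had been seen, several promoters belong to duplicated genes that share sequence, and a match describes letters and no bound factor.

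The first comparison asked how receptor levels in livers of tumor-bearing mice differed between WT and TRPV4-KO animals. Both WT values lay above those of all TRPV4-KO livers for 28 genes, among them all tested lectins of the Dectin-2 cluster and most Fc receptors, surface TLRs and CD300 genes, with folds of 1.62 to 3.41 over the 28, while Fcgr2b, Tlr5, Clec2d and the endothelial Clec4g and Clec14a overlapped between the groups. A gene was called where its Benjamini-Hochberg adjusted p in the quasi-likelihood test of edgeR was under 0.05 and its fold was over 1 on the log2 scale, up or down. None of the 44 genes was called (smallest adjusted p = 0.12), against 0.152% of all tested genes called higher and 0.112% called lower in WT. At an unadjusted p under 0.05 in the same edgeR fit, 26 of 44 were higher and 1 was lower in WT (59.1% and 2.27%), against 9.5% and 7.61% of all genes. The WT livers lay above all 3 TRPV4-KO livers in 28 of 44 genes (63.6%) and below them in 2 (4.55%), against 17.7% and 15.5% of all genes. The median log2 fold change of the 44 was 1.11, from -1.37 to 1.77, against -0.01 over all genes. These levels are of whole tissue, in which fewer cells of a type and less RNA per cell cannot be told apart.

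How many genes passed depended on the tool and on 1 liver. DESeq2 called 14 of the 44 higher in WT (2.41% of all genes), edgeR without TRPV4-KO 3, the only TRPV4-KO liver with Xist reads, called 9 (3.83% of all genes) and edgeR with a term for sex reads called 9 (1.67% of all genes). Without the filter on low counts edgeR called 2, Fcgr1 and Tlr2 (0.37% of all genes). Under none of these was a receptor gene called lower in WT. Within these 4 settings alone, Fcgr1 and Tlr2 were called in each, and Clec4n, Cd300ld, Cd300lf, Fcgr3 and Clec12a in all but the one without the filter. TRPV4-KO 3 stood nearer to WT than the other TRPV4-KO livers in many of these genes, so leaving it out favors calls. It also leaves only TRPV4-KO livers with Y-linked reads, against WT livers of both sexes. Without TRPV4-KO 1 or without TRPV4-KO 2 edgeR called 0 receptor genes (0.0531% and 0.0464% of all genes called higher). With the liver TRPV4-KO 3 left out, the adjusted p of Cd300lf in edgeR was 0.017, that of Fcgr1 0.039 and that of Tlr2 0.036. The other 6 genes called without that liver were Cd300a, Cd300ld, Clec4n, Siglece, Clec12a and Fcgr3, with adjusted p of 0.032, 0.033, 0.032, 0.034, 0.037 and 0.044 in edgeR.

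**Figure D1:**
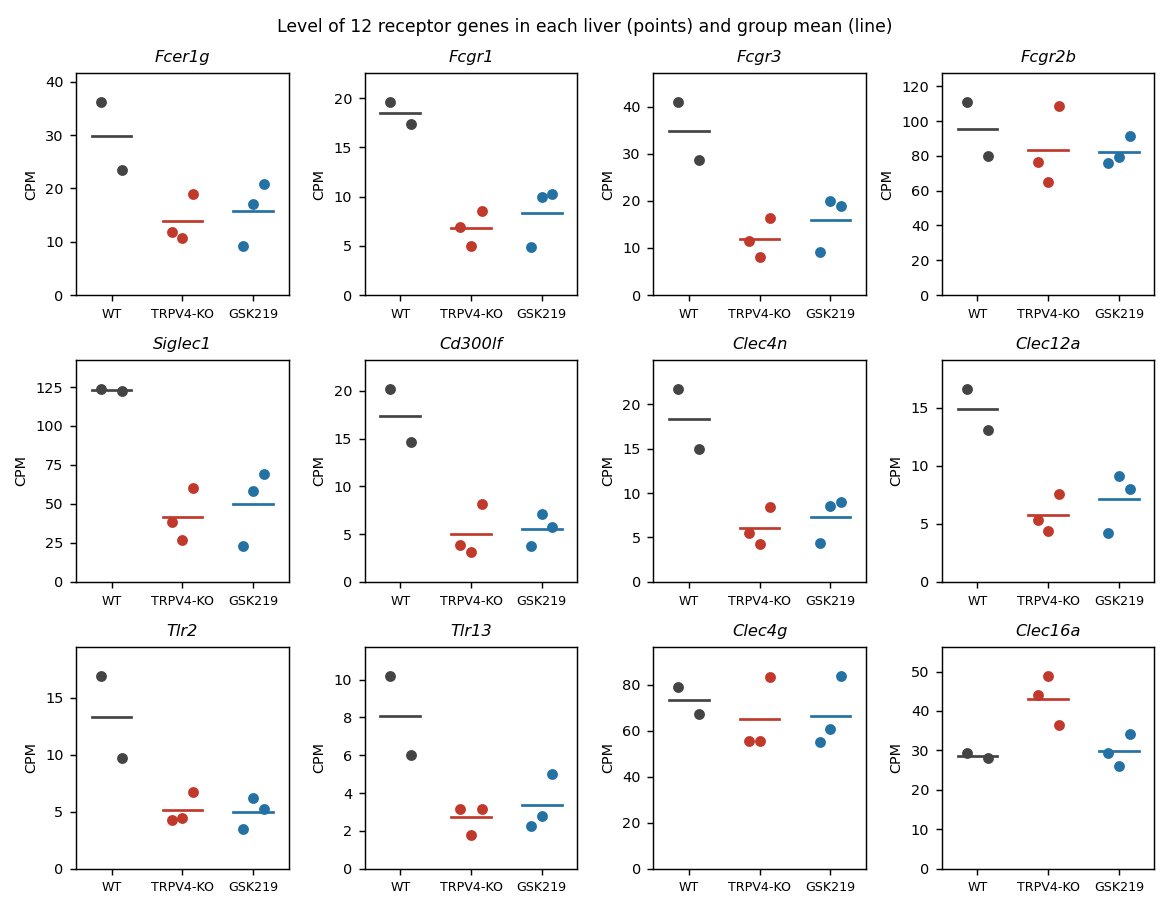
Level in CPM (vertical axes, from 0) of 12 receptor genes in each liver (points) with the mean of the group (lines), for 2 WT, 3 TRPV4-KO and 3 GSK219 livers. Both WT livers lie above the other livers for Fcgr1, Fcgr3, Siglec1, Cd300lf, Clec4n, Clec12a, Tlr2 and Tlr13, whereas Fcgr2b and Clec4g overlap between groups, and Clec16a is highest in TRPV4-KO livers.

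Among the Fc receptors and their adaptor, 4 of 5 genes had WT livers above all TRPV4-KO livers. Fcer1g, with a mean of 21.2 CPM per kb the highest of this class per length over all 8 livers, was at 36.2 and 23.4 CPM in WT, 11.8, 10.7 and 19.0 CPM in TRPV4-KO and 9.19, 17.0 and 20.9 CPM in GSK219 livers. Both WT livers lay above the other 6, with the smallest gap to GSK219 3. Its log2 fold change was 1.10 (SE 0.37, adjusted p = 0.20 in edgeR) over TRPV4-KO and 0.92 (SE 0.37, adjusted p = 0.58) over GSK219.

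Fcgr1, the high-affinity receptor of IgG, was at 19.6 and 17.4 CPM in WT, 6.96, 4.99 and 8.57 CPM in TRPV4-KO and 4.85, 10.0 and 10.3 CPM in GSK219 livers. Fcgr3, an activating receptor of immune complexes, was at 41.0 and 28.7 CPM in WT against 11.5, 8.16 and 16.3 CPM in TRPV4-KO and 9.06, 20 and 18.9 CPM in GSK219 livers. For both genes the 2 WT livers had the highest values of the 8. By the edgeR fit WT stood above TRPV4-KO by 2.7-fold for Fcgr1 and by 2.91-fold for Fcgr3. Fcgr4, which binds IgG2 subclasses in mice, was at 18.8 and 13.6 CPM in WT and 4.81, 4.79 and 10.8 CPM in TRPV4-KO livers, but reached 14.2 CPM in GSK219 3 and so overlapped WT there.

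Fcgr2b, the inhibitory Fc receptor, did not follow these genes. It was at 110.9 and 79.7 CPM in WT, 76.3, 65.2 and 108.7 CPM in TRPV4-KO and 76.0, 79.2 and 91.3 CPM in GSK219 livers. The groups overlapped, with a log2 fold change of 0.19 (SE 0.23) over TRPV4-KO and 0.21 (SE 0.23) over GSK219, both within their standard error of 0. Leaving out single livers moved its value over TRPV4-KO between -0.05 and 0.43. Fcgr2b, Fcgr4, Fcgr3 and Fcer1g lie on chromosome 1, within chr1:170958617-171234365 of GRCm38. Fcgr2b, Fcgr3 and Fcgr4 are related in sequence, so reads shared between them may have been split by the counting.

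**Figure D2:**
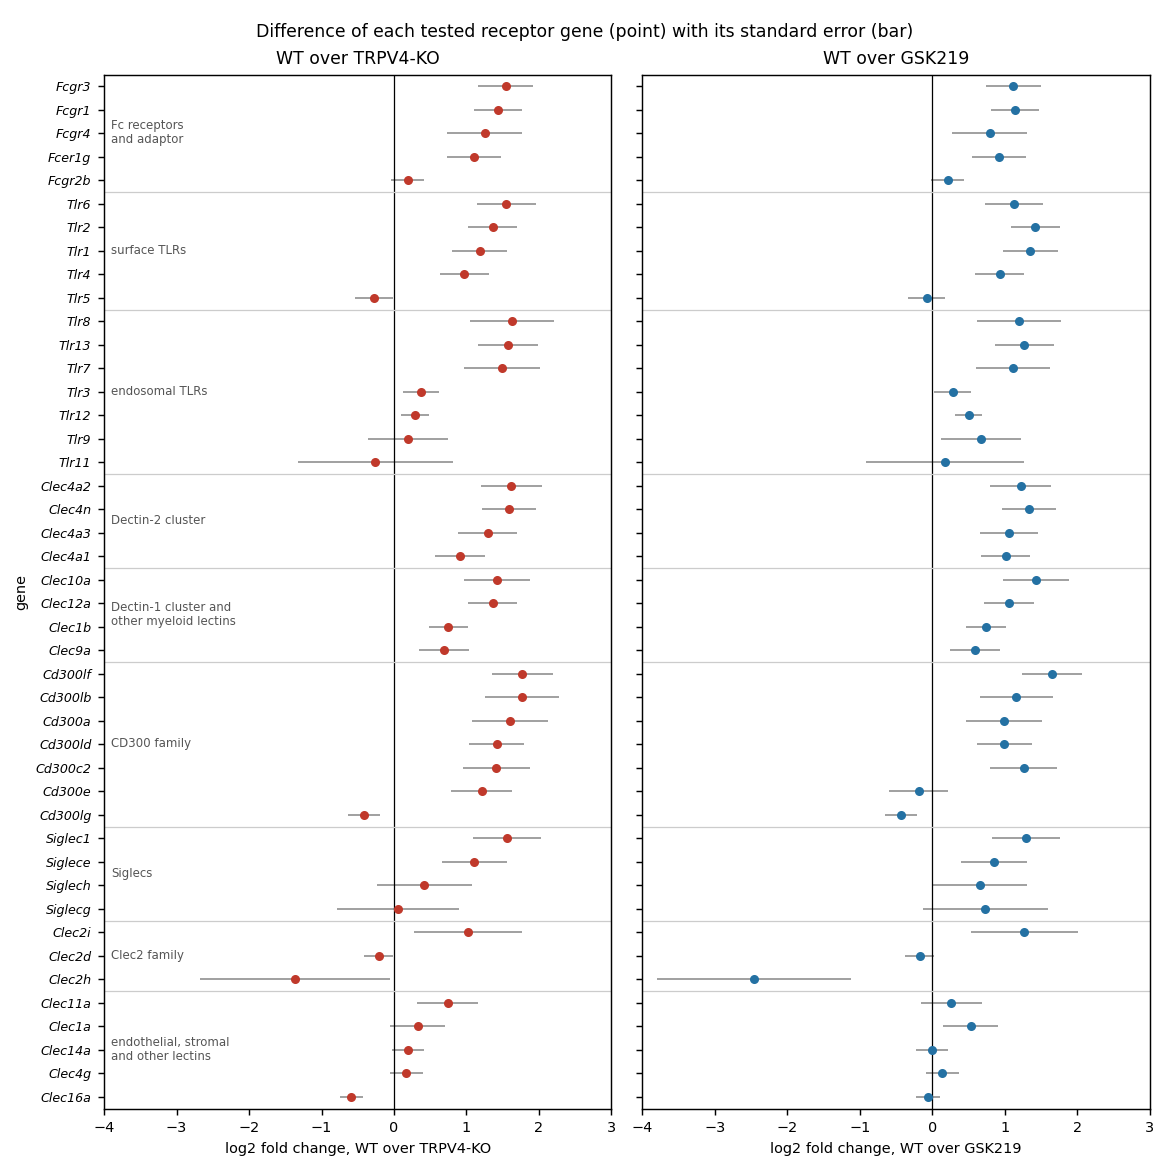
Log2 fold change (horizontal axes) of WT over TRPV4-KO (left) and of WT over GSK219 (right) for each of the 44 tested receptor genes (points) with its standard error from edgeR (bars), grouped by class. Most points of the Fc receptor, Dectin and CD300 classes lie near 1 or above on both sides, and Fcgr2b, Tlr5, Clec2d, Clec4g and Clec14a lie near 0. Both panels use the same 2 WT livers.

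Of the 5 TLRs of the cell surface, 4 had WT livers above all TRPV4-KO livers and above all GSK219 livers, and Tlr5 did not. Tlr2, the receptor of bacterial lipoproteins, was at 16.9 and 9.67 CPM in WT, 4.30, 4.41 and 6.77 CPM in TRPV4-KO and 3.46, 6.22 and 5.20 CPM in GSK219 livers. Its fold in the edgeR fit was 2.57 over TRPV4-KO and 2.67 over GSK219, the latter with the smallest adjusted p of all 44 genes in that comparison (0.42). Tlr1 and Tlr6, which form heterodimers with Tlr2, had log2 fold changes of 1.18 (SE 0.38) and 1.55 (SE 0.41) over TRPV4-KO, and of 1.35 (SE 0.38) and 1.13 (SE 0.40) over GSK219. All 3 genes of the Tlr2 receptor pairs had their highest values in the WT livers, and the smallest adjusted p of the 3 in the edgeR fit of all 8 livers, without a term for sex reads and with the filter on low counts, was 0.13.

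Tlr4, the receptor of lipopolysaccharide, was at 8.23 and 6.06 CPM in WT, 4.05, 2.72 and 4.17 CPM in TRPV4-KO and 2.45, 3.81 and 4.96 CPM in GSK219 livers. Tlr5, the flagellin receptor, was at 10.8 and 9.73 CPM in WT and at 9.90 to 15.7 CPM in TRPV4-KO livers, with overlapping groups and a log2 fold change of -0.28 (SE 0.26). Tlr4 was higher in both WT livers, and Tlr5 was the only surface TLR with a fold below 0.

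The 7 tested TLRs of endosomes split by gene. The 3 on the X chromosome, Tlr7, Tlr8 and Tlr13, receptors of RNA, had WT livers above all TRPV4-KO and all GSK219 livers. Tlr13 was at 10.2 and 6.00 CPM in WT, 3.16, 1.81 and 3.18 CPM in TRPV4-KO and 2.27, 2.78 and 5.02 CPM in GSK219 livers. Tlr8 was at 9.90 and 6.82 CPM in WT, 2.91, 1.36 and 3.76 CPM in TRPV4-KO and 1.38, 3.32 and 6.16 CPM in GSK219 livers. Tlr7, with 6.87 and 6.94 CPM in WT, had the closest pair of WT values of the 3. Their log2 fold changes over TRPV4-KO were 1.57 (SE 0.41) for Tlr13, 1.63 (SE 0.58) for Tlr8 and 1.49 (SE 0.52) for Tlr7. Tlr3, which senses double-stranded RNA, was at 11.6 and 8.68 CPM in WT and 7.02, 6.54 and 9.84 CPM in TRPV4-KO livers, and Tlr12 at 15.4 and 11.1 CPM against 11.6, 10.9 and 9.84 CPM. Both overlapped between WT and TRPV4-KO livers, with log2 fold changes of 0.37 (SE 0.25) and 0.29 (SE 0.19). Tlr12 was higher in both WT livers than in the GSK219 livers, at 8.37 to 10.0 CPM. Tlr9, a receptor of DNA, also lay above the GSK219 livers, at 1.67 and 1.69 CPM against 0.692, 0.906 and 1.55 CPM. Tlr9 and Tlr11 had the lowest levels per kb of the 7, 0.392 and 0.144 CPM per kb, with log2 fold changes of 0.19 (SE 0.55) and -0.26 (SE 1.07) over TRPV4-KO.

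All 4 tested lectins of the Dectin-2 cluster on chromosome 6 had WT livers above every other liver. Over all genes, WT livers lay above all TRPV4-KO livers in 17.7% and above all GSK219 livers in 15.6%, and the share for both together was not counted. Clec4n, which encodes Dectin-2, a receptor of fungal mannans that signals through FcRγ, was at 21.7 and 14.9 CPM in WT, 5.50, 4.21 and 8.45 CPM in TRPV4-KO and 4.34, 8.58 and 8.97 CPM in GSK219 livers. Its log2 fold change was 1.59 (SE 0.37, adjusted p = 0.12 in edgeR) over TRPV4-KO and 1.33 (SE 0.37, adjusted p = 0.49) over GSK219. Clec4a2, an inhibitory lectin of dendritic cells and macrophages, had a log2 fold change of 1.62 (SE 0.42) over TRPV4-KO and 1.22 (SE 0.42) over GSK219. Clec4a1 and Clec4a3 stood at 0.91 (SE 0.34) and 1.29 (SE 0.41) over TRPV4-KO. The Clec4a genes are copies of each other and may share reads. The remaining 5 genes of the cluster, among them Clec4d and Clec4e, were too low in liver to test.

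Of the Dectin-1 cluster and other myeloid lectins, the 4 tested genes also had WT livers above every other liver. Clec7a, the gene of Dectin-1 itself, is annotated as a polymorphic pseudogene in the table and so is not among the 64 genes or in the values of this class. It was at 27 and 19 CPM in WT, 8.54, 6.87 and 10.2 CPM in TRPV4-KO and 4.15, 11.8 and 9.38 CPM in GSK219 livers. Both of its WT values were above all others, with log2 fold changes of 1.42 (SE 0.38, adjusted p = 0.15 in edgeR) over TRPV4-KO and 1.44 (SE 0.38, adjusted p = 0.47 in edgeR) over GSK219. Clec12a, an inhibitory receptor of myeloid cells, was at 16.6 and 13.1 CPM in WT, 5.31, 4.41 and 7.58 CPM in TRPV4-KO and 4.22, 9.12 and 8.01 CPM in GSK219 livers. Clec10a, a galactose-binding lectin of macrophages and dendritic cells, was at 4.08 and 2.39 CPM in WT and between 0.629 and 1.56 CPM in the other 6 livers. Both WT values of each gene were the highest of the 8, with folds over TRPV4-KO of 2.57 and 2.67. Clec1b, the podoplanin receptor known from platelets and Kupffer cells, had the highest level per kb of the class and a smaller log2 fold change, 0.75 (SE 0.27) over TRPV4-KO and 0.74 (SE 0.27) over GSK219. Clec9a, a receptor of dead cells on cross-presenting dendritic cells, stood at 0.69 (SE 0.34) and 0.59 (SE 0.34). Clec1b and Clec9a overlap in the annotation, and the strand of the counting is not stated, so reads of the 2 cannot be fully told apart.

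In the CD300 family, whose 12 genes lie on chromosome 11 and encode activating and inhibitory receptors, many of them of myeloid cells, 6 of 7 tested genes had WT livers above all TRPV4-KO livers. Cd300lf, an inhibitory receptor of phosphatidylserine, was at 20.2 and 14.6 CPM in WT, 3.86, 3.17 and 8.16 CPM in TRPV4-KO and 3.71, 7.13 and 5.74 CPM in GSK219 livers. Its log2 fold change of 1.77 (SE 0.42, adjusted p = 0.12 in edgeR) over TRPV4-KO was, with the 1.77 of Cd300lb (SE 0.51, adjusted p = 0.16), the highest of all 44 genes, and its 1.65 (SE 0.41, adjusted p = 0.44) over GSK219 was the highest there. Cd300ld was at 23.0 and 23.3 CPM in WT, 7.27, 5.96 and 12.7 CPM in TRPV4-KO and 6.67, 13.1 and 15.2 CPM in GSK219 livers. In these 2 genes the WT values lay above those of all 6 other livers.

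Among the tested CD300 genes, Cd300e, an activating receptor of monocytes, was the only one whose TRPV4-KO and GSK219 livers did not overlap. It was at 3.59 and 3.09 CPM in WT, 1.26, 1.23 and 1.79 CPM in TRPV4-KO and 2.33, 3.14 and 5.92 CPM in GSK219 livers, so WT lay above TRPV4-KO but not above GSK219. All 3 GSK219 livers lay above all 3 TRPV4-KO livers, with a log2 fold change of -1.40 (SE 0.38) for TRPV4-KO over GSK219. Its adjusted p there was 0.48 in edgeR, so it did not pass. At an unadjusted p under 0.05 in edgeR it was 1 of 44 genes lower in TRPV4-KO (2.27%), near the 2.64% of all genes. The share of all genes whose TRPV4-KO and GSK219 livers did not overlap was not counted. Cd300lg, known from endothelium, was lower in both WT livers (14.5 and 14.0 CPM) than in the TRPV4-KO livers (14.7, 17.6 and 24.3 CPM) and the GSK219 livers (17.9, 17.2 and 22.4 CPM). The gap between its nearest WT and TRPV4-KO livers was small against the spread of the TRPV4-KO livers. The 4 copies Cd300ld2 to Cd300ld5 were too low to test and resemble Cd300ld.

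Among the Siglecs, sialic acid-binding lectins, Siglec1 and Siglece had WT livers above all other livers and Siglecg and Siglech did not. Siglec1, the macrophage receptor sialoadhesin, was at 123.7 and 122.4 CPM in WT, 38.1, 26.6 and 60.3 CPM in TRPV4-KO and 23.3, 58.1 and 69.4 CPM in GSK219 livers. The 2 WT livers were close to each other, while the other 6 varied widely and all lay below them. Its folds were 2.95 over TRPV4-KO (log2 1.56, SE 0.47, adjusted p = 0.18 in edgeR) and 2.45 over GSK219 (log2 1.29, SE 0.47, adjusted p = 0.57). Siglece, an inhibitory receptor of neutrophils and monocytes, was at 12.2 and 12.7 CPM in WT against 4.49, 3.24 and 9.49 CPM in TRPV4-KO and 4.34, 6.83 and 9.5 CPM in GSK219 livers. Siglech, a marker of plasmacytoid dendritic cells, was at 1.55 and 0.699 CPM in WT and 0.822, 0.454 and 1.22 CPM in TRPV4-KO livers, which overlapped.

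**Figure D3:**
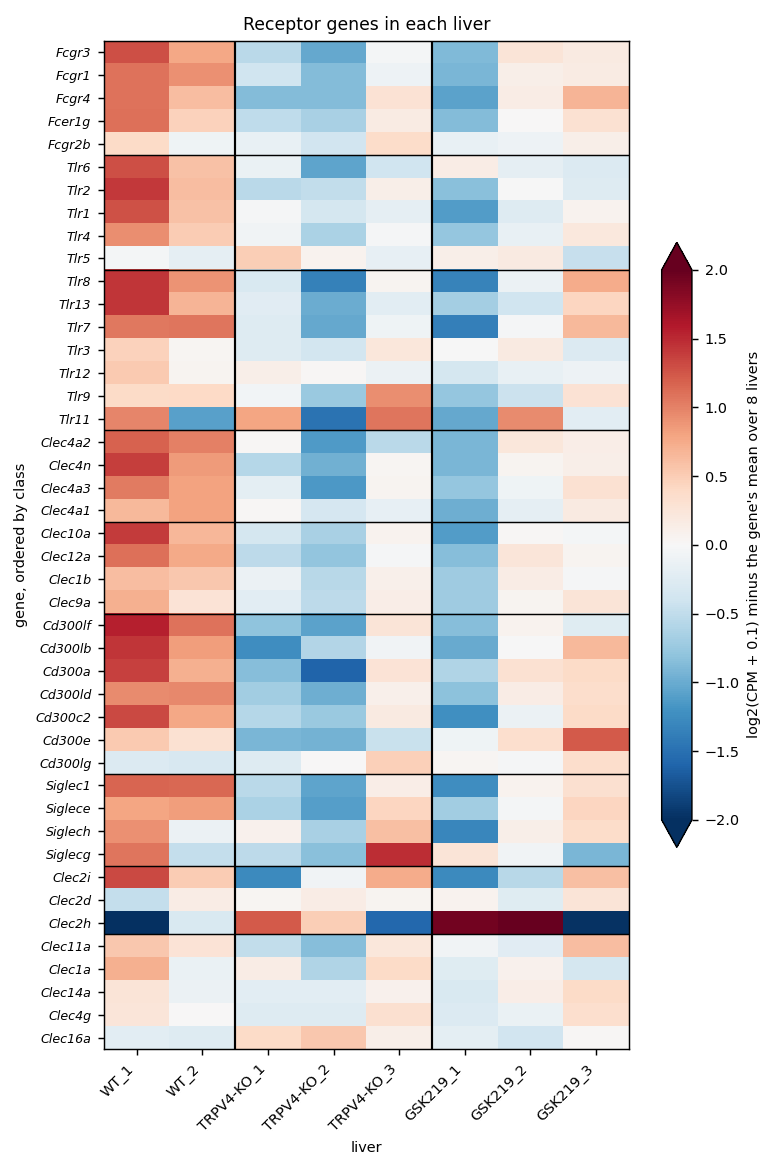
Heat map of the 44 tested receptor genes (rows, by class) in the 8 livers (columns), as log2(CPM + 0.1) minus the mean of the gene over the 8 livers (color scale cut at -2 and 2). Both WT columns are red for most rows, TRPV4-KO 1, TRPV4-KO 2 and GSK219 1 are mostly blue, and TRPV4-KO 3, GSK219 2 and GSK219 3 lie between. Clec2h is low in WT 1, TRPV4-KO 3 and GSK219 3.

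The lectins that are not of myeloid cells showed no common difference. Clec4g, a lectin of the sinusoidal endothelium, was at 79.1 and 67.3 CPM in WT, 55.7, 55.6 and 83.5 CPM in TRPV4-KO and 55.1, 60.8 and 83.8 CPM in GSK219 livers, with log2 fold changes of 0.17 and 0.14 (SE 0.23 for both). Clec11a, which encodes a secreted growth factor, lay above the TRPV4-KO livers, at 2.54 and 2.1 CPM against 1.2, 0.907 and 2.03 CPM, but not above the GSK219 livers. Clec14a, an endothelial lectin, stood at 0.19 (SE 0.22) over TRPV4-KO and -0.01 (SE 0.22) over GSK219. Clec2d, the ligand of an inhibitory receptor of natural killer cells and the most abundant receptor gene per length (44.6 CPM per kb over all livers), was at 38.5 and 59.2 CPM in WT and 55.1, 59.0 and 55.4 CPM in TRPV4-KO livers. Clec4g, Clec14a and Clec2d overlapped between the groups.

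Clec16a, which despite its name encodes an intracellular protein of mitophagy, had lower values in WT than in TRPV4-KO livers but not than in GSK219 livers. It was at 29.3 and 28.1 CPM in WT, 44.1, 48.9 and 36.5 CPM in TRPV4-KO and 29.4, 26.0 and 34.2 CPM in GSK219 livers. Its log2 fold change was -0.59 (SE 0.16, unadjusted p = 0.0066, adjusted p = 0.16 in edgeR) over TRPV4-KO and -0.06 (SE 0.16) over GSK219. TRPV4-KO livers also lay above all GSK219 livers, with a log2 fold change of 0.53 (SE 0.15, unadjusted p = 0.0059, adjusted p = 0.49 in edgeR). Clec16a did not pass the threshold in any of the 3 comparisons. Clec2h varied by liver more than by group, with 1.36 and 4.60 CPM in WT, 13.5, 8.03 and 1.85 CPM in TRPV4-KO and 22.0, 26.3 and 1.37 CPM in GSK219 livers. Clec2i had 2.04 and 1.11 CPM in WT and 0.252 to 1.33 CPM in the other livers. The 3 livers with the lowest Clec2h values were those with Xist reads. In the edgeR fit with a term for sex reads Clec2h was lower in them by a log2 difference of -2.91 (SE 0.43, adjusted p = 0.014). It was the only one of the 44 genes called for that term, while most of the others were higher in livers with Xist reads, below the threshold.

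Over the 64 genes, the summed level was 852.0 and 716.8 CPM in WT, 477.1, 423.2 and 613.1 CPM in TRPV4-KO and 422.9, 553.1 and 629.2 CPM in GSK219 livers. The classes took unequal parts in this. The summed Dectin-2 cluster was at 39.9 ± 6.18 CPM (SD, n = 2) in WT, 14.9 ± 4.34 (SD, n = 3) in TRPV4-KO and 17.3 ± 6.17 (SD, n = 3) in GSK219 livers, and the summed Siglecs at 138.6 ± 2.36, 49.5 ± 22.0 and 58.8 ± 26.7 CPM. The endothelial, stromal and other lectins together were at 125.8 ± 14.7, 127.8 ± 13.6 and 118.4 ± 22.6 CPM, so that their group means differed by less than their SD. By median log2 fold change over TRPV4-KO the Dectin-2 cluster (1.44), the CD300 family (1.42), the Fc receptors (1.25) and the surface TLRs (1.18) lay above the Dectin-1 group (1.06), the Siglecs (0.77), the endosomal TLRs (0.37), the endothelial, stromal and other lectins (0.19) and the Clec2 family (-0.21).

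The second comparison asked the same of WT livers and of livers of WT mice given GSK219. It used the same 2 WT livers, so its values are no independent repeat of those above. None of the 44 genes passed the threshold in either direction (edgeR, smallest adjusted p = 0.42), and 0% of all 15118 genes did so in either direction. DESeq2 called 2 of the 43 genes to which it gave an adjusted p higher in WT (0.439% of all genes). At an unadjusted p under 0.05, 21 of 44 were higher in WT and 0 lower (47.7% and 0%), against 5.87% and 2.34% of all genes. The WT livers lay above all 3 GSK219 livers in 27 genes (61.4%) and below them in 1 (2.27%), against 15.6% and 11.7% of all genes. The median log2 fold change was 0.93, from -2.46 to 1.65, against -0.00 over all genes. By class the medians were 1.14 for the Dectin-2 cluster, 1.13 for the surface TLRs, 0.99 for the CD300 family, 0.92 for the Fc receptors, 0.90 for the Dectin-1 group, 0.79 for the Siglecs, 0.67 for the endosomal TLRs, 0.14 for the endothelial, stromal and other lectins and -0.17 for the Clec2 family.

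The third comparison set TRPV4-KO livers against GSK219 livers, which share no sample. None of the 44 genes was called higher or lower (edgeR, smallest adjusted p = 0.48), against 0.0529% and 0.0463% of all genes, and DESeq2 called none either. At an unadjusted p under 0.05, 1 gene was higher (Clec16a) and 1 lower (Cd300e) in TRPV4-KO (2.27% each), against 3.48% and 2.64% of all genes. Neither count exceeded the share over all genes. The median log2 fold change was -0.14, from -1.40 to 0.68, against 0.01 over all genes. A p that misses the threshold in 3 against 3 livers does not show that the groups were alike: for Fcgr3, for example, the log2 fold change was -0.42 with an SE of 0.35.

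Among the 20 genes too low to test, WT livers lay above all TRPV4-KO livers in 6 (Clec5a, Clec12b, Clec4b1, Clec4a4, Siglecf and Clec3b) and below them in 0. Against GSK219 livers they lay above in 3 (Cd300c, Siglecf and Clec3b) and below in 1 (Cd300ld5). Of the 16 with any count this is 37.5% above and 0% below TRPV4-KO livers and 18.8% and 6.25% for GSK219 livers, against 12.3%, 3.2%, 10.1% and 2.68% of the 3660 untested protein-coding genes with a count. These rest on few reads, at most 18 counts in a liver, were not tested, and were not matched to the other genes by count.

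The genes that carry the signals of these receptors were read from 2 lists, of which all 44 genes were tested and none passed the threshold in a liver comparison. Of the 21 genes of the ITAM and ITIM side, 16 had WT livers above all TRPV4-KO livers and none below, with a median log2 fold change of 1.06, and 15 had WT livers above all GSK219 livers, with a median of 0.90. Of the 23 genes of the TLR side, 8 lay above and 1 below TRPV4-KO livers with a median of 0.30, and 8 above and 1 below GSK219 livers with a median of 0.27. Over all genes 17.7% lay above and 15.5% below TRPV4-KO livers, and 15.6% and 11.7% for GSK219 livers. Tyrobp, the ITAM adaptor DAP12, was at 33.6 and 28 CPM in WT, 11.4, 9.07 and 17.5 CPM in TRPV4-KO and 7.87, 16.6 and 21.1 CPM in GSK219 livers. Its WT values were the highest of the 8. Cd14, the co-receptor of Tlr4, had a log2 fold change of 1.54 (SE 0.45) over TRPV4-KO and 1.17 (SE 0.44) over GSK219. In the same order, Irak3, an inhibitor of TLR signaling, stood at 1.38 (SE 0.38) and 1.28 (SE 0.38), and Btk, a kinase of blood cells, at 1.28 (SE 0.41) and 0.86 (SE 0.41). Sarm1, with at most 29 counts in a liver, stood at 1.41 (SE 0.44) and 0.61 (SE 0.42). The kinase Syk stood at 1.05 (SE 0.36) and 0.93 (SE 0.36), and Irak4, a kinase directly below MyD88, at 0.40 (SE 0.13) and 0.43 (SE 0.13). The TLR adaptors Myd88, Tirap and Ticam1 were at 0.32 (SE 0.16), -0.03 (SE 0.19) and -0.06 (SE 0.16) over TRPV4-KO and at 0.33 (SE 0.16), 0.08 (SE 0.19) and -0.02 (SE 0.16) over GSK219.

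Marker genes of other cell types were read from the same fit, in which 3 of them passed the threshold over TRPV4-KO and none over GSK219. Of 7 Kupffer cell markers, 6 had WT livers above all TRPV4-KO and above all GSK219 livers, C6 being the exception, with median log2 fold changes of 1.36 and 1.16. Their summed level was 1219 to 1481 CPM in WT, 643.9 to 696.7 in TRPV4-KO and 653.4 to 821.4 in GSK219 livers, and none was at 0 in any liver. C6, which alone was at 87 and 467.3 CPM in WT, 330.7, 418.6 and 34.4 in TRPV4-KO and 361.8, 307.7 and 48.4 in GSK219 livers, was lowest within each group in the liver with Xist reads. Without C6 the sums were 1132 and 1013 CPM in WT, 366.0, 258.5 and 609.4 in TRPV4-KO and 291.6, 513.7 and 696.5 in GSK219 livers, so that TRPV4-KO 3 and GSK219 3 lay nearest to WT in their groups. Of 6 tested neutrophil markers, all had WT livers above those of both other groups, with summed levels of 54.3 to 67.0 CPM in WT, 6.54 to 16.2 in TRPV4-KO and 5.85 to 14.2 in GSK219 livers, and S100a8 and Cxcr2 passed the threshold over TRPV4-KO in edgeR (adjusted p = 0.028 for both). Ly6g, the defining neutrophil gene, had 2 and 3 counts in the WT livers, 1 in TRPV4-KO 3 and in GSK219 3 and 0 in the other 4. Of 6 monocyte markers, 4 lay above TRPV4-KO livers and 6 above GSK219 livers, with sums of 35.3 to 47.6, 8.49 to 30.1 and 11.3 to 20.5 CPM, and F13a1 passed the threshold over TRPV4-KO in edgeR (log2 2.47). Stellate cell and fibroblast markers summed to 259.9 to 328.3 CPM in WT, 95 to 224.6 in TRPV4-KO and 131.5 to 226.8 in GSK219 livers, with medians of 0.88 and 0.63 and with 3 and 5 of 6 genes above all livers of the other group. Platelet markers summed to 12.3 to 15.5, 4.99 to 10.2 and 6.04 to 8.91 CPM, with medians of 0.98 and 0.81 and 2 of 3 tested genes above in both comparisons. Sinusoidal endothelial markers, at 442.6 to 486.3, 308.5 to 454.1 and 357.7 to 474.8 CPM, had median log2 fold changes of 0.24 over TRPV4-KO and 0.15 over GSK219. Of these 6 markers, Stab1 (log2 0.30), Stab2 (0.45) and Pecam1 (0.73) had WT livers above all TRPV4-KO livers, and none lay above all GSK219 livers. The 5 dendritic cell markers, with overlapping sums of 13.6 to 20.1, 10.6 to 17.6 and 10.8 to 14.5 CPM, had median log2 fold changes of 0.25 over TRPV4-KO and 0.95 over GSK219, with 1 and 3 genes above all livers of the other group. The plasmacytoid dendritic cell markers summed to 155.2 to 184.8, 136.3 to 178.4 and 131.6 to 202.8 CPM, mostly through Bst2, which overlapped, while Ly6d and Ccr9, 2 of the 4 tested, lay above both other groups and the medians were 0.90 and 0.83. T and NK cell markers (2.45 to 4.39, 1.64 to 4.92 and 1.7 to 4.12 CPM) had overlapping sums and medians of 0.39 and 0.51, with no gene above or below all livers of another group. B cell markers summed to 1.34 to 5.57, 4.36 to 14.9 and 3.23 to 5.03 CPM, with median log2 fold changes of -1.71 over TRPV4-KO, where Ms4a1 and Cd79a lay below all livers of that group, and -0.39 over GSK219, where none did. Tumor and duct epithelial markers summed to 18.7 to 22.7, 9.72 to 10.2 and 11.2 to 13.7 CPM, mostly through Sox9 (log2 1.59 over TRPV4-KO), while Krt19 and Krt7 stood at -0.44 and -0.08 and 1 of the 5 lay above all TRPV4-KO livers (median 0.34). Over GSK219, Sox9, Krt19 (0.37) and Krt7 (1.16) lay above all livers, with a median of 0.74. Of 6 hepatocyte markers, Alb lay below all TRPV4-KO and all GSK219 livers (log2 -0.81 and -0.61), Ttr lay below all GSK219 livers (-0.20), Fgb lay above all TRPV4-KO livers (0.84), and the medians were -0.14 and -0.13. Their sums, which are mostly Alb, were 53873 to 69373 CPM in WT, 74647 to 95626 in TRPV4-KO and 77208 to 84913 in GSK219 livers. The part of these cell types in the receptor differences was not tested.

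In cultured PSCs, 33 of the 64 genes were listed in the deposited table and 28 passed the filter on low values. Values there are the authors' normalized counts, and between 27312894 and 39070539 reads per library lay on the listed genes. All 6 stellate cell markers were present, at summed values of 714434 to 821344 with DMSO and 349218 to 450119 with Yoda1. Genes of macrophages were present at low values, such as Marco with means of 61.0 with DMSO and 41.6 with Yoda1, and Fcer1g with 53.0 ± 5.88 and 42.1 ± 2.97 (SD, n = 3 each), whereas the Kupffer cell gene Clec4f and the T cell gene Cd3e were not listed. Per kb of length, Tlr4 had the highest mean value of the 33 (135.2), followed by Fcgr3 (126.4), Clec2d (121.8), Tlr3 (113.0), Siglecg (98.3) and Clec16a (83.8).

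Clec4d rose with Yoda1 in the fit without the preparation as a block, and Clec4d and Cd300lf rose in the fit with it. Clec4d, which encodes a lectin that pairs with Mincle and FcRγ, was at 62.3, 61.7 and 62.6 with DMSO and 114.8, 161.3 and 187.6 with Yoda1. Every Yoda1 culture lay above every DMSO culture. Its log2 fold change was 1.27 (SE 0.20) with an adjusted p of 0.024 in limma, and 0.0078 with the preparation as a block. In the fit without the block, which leaves out the pairing of the cultures, it was 1 of 28 tested genes called higher (0 called lower). Of all 15145 tested genes 0.733% and 0.786% were called there. With the block 2 of 28 were called higher and 0 lower, against 1.66% and 1.32% of all genes. Without any 1 of the 3 DMSO cultures, or without the second Yoda1 culture, no receptor gene was called. In these fits 0.266%, 0.0667%, 0.447% and 0.0534% of all genes were called higher, in that order. Clec4d itself kept a log2 fold change of 1.23 to 1.27 in these fits. The median log2 fold change of the 28 was 0.14, against -0.01 over all genes.

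**Figure D4:**
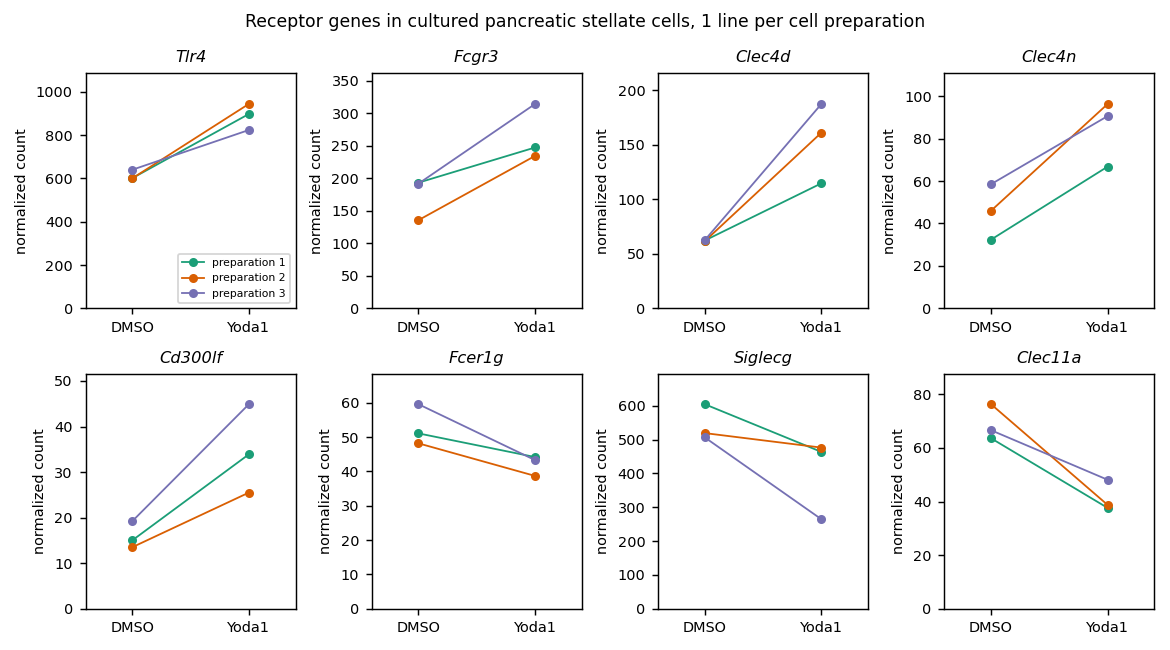
Normalized counts (vertical axes, from 0) of 8 receptor genes in PSCs with DMSO and with Yoda1, with 1 line for each of 3 cell preparations. Yoda1 lies above DMSO in all 3 preparations for Tlr4, Fcgr3, Clec4d, Clec4n and Cd300lf, and below it for Fcer1g, Siglecg and Clec11a.

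Tlr4 was at 601.0, 600.1 and 639.9 with DMSO and 897.4, 943.9 and 823.5 with Yoda1, a log2 fold change of 0.53 (SE 0.08, adjusted p = 0.018 in limma), which lay below the fold threshold. With the preparation as a block, 1.66% of all genes were called higher, and Cd300lf also passed the threshold, at 15, 13.5 and 19.2 with DMSO and 33.9, 25.5 and 44.9 with Yoda1 (log2 1.06, SE 0.23, adjusted p = 0.028 in limma, against 0.090 without the block). Fcgr3, at 193.3, 135.7 and 191.8 with DMSO and 247.4, 234.5 and 314.3 with Yoda1, differed by 0.62 on the log2 scale (adjusted p = 0.12 in limma, 0.021 with the block). Clec4n stood at 0.90 (adjusted p = 0.11 in limma, 0.020 with the block) and Clec11a at -0.72 (adjusted p = 0.078 in limma, 0.042 with the block). All 3 Yoda1 cultures lay above all 3 DMSO cultures in 8 of the 28 tested genes (28.6%), which were Clec4d, Tlr4, Cd300lf, Fcgr3, Clec4n, Fcgr4, Clec2l and Cd300a, and below them in 3 (10.7%), which were Clec11a, Fcer1g and Siglecg, against 14.9% and 15.1% of all tested genes. Fcer1g, the adaptor of Fcgr3, Clec4d and Clec4n, had a log2 fold change of -0.32 (SE 0.17, adjusted p = 0.32 in limma, 0.24 with the block). Siglecg stood at -0.48 (adjusted p = 0.28 in limma, 0.096 with the block), and Tlr3, Clec2d and Clec16a at 0.17 (SE 0.17), 0.07 (SE 0.21) and -0.03 (SE 0.07). Summed Kupffer cell markers (4 of 7 listed) were at 132.4 to 167.1 with DMSO and 93.0 to 129.9 with Yoda1, so that the Yoda1 cultures lay lower. Of the other lists, the Yoda1 cultures also lay lower for the stellate cell markers, whose sums are given above. The same held for sinusoidal endothelial markers (5 of 6 listed), at 2203 to 2485 with DMSO and 1268 to 1377 with Yoda1. It also held for the 1 dendritic cell marker listed, at 327.9 to 342.1 and 256.6 to 320.8. Of the endothelial markers, Kdr had means of 1586 and 758.1 and Stab1 of 577.1 and 368.3, whereas Pecam1 stood at 124.9 and 158.9 and Lyve1 at 10.9 and 41.9. The sums of platelet, plasmacytoid dendritic cell, monocyte, neutrophil, B cell and hepatocyte markers overlapped between DMSO and Yoda1. Markers of duct epithelium were present as well, at summed values of 15438 to 22631 with DMSO and 11884 to 26022 with Yoda1. The part of other cells in these values was not tested.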

How the data were processed

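RNA-Seq of 8 livers and 6 PSC cultures was read from 2 tables. The liver table holds raw read counts per gene, which the authors deposited without normalization. HISAT2 2.0.5 and Trim Galore are named in the submitters' processing notes, and the counting tool and its strand setting are not given in the sources used here. Gene coordinates are those of GENCODE M21 (GRCm38) for all 64 genes. The PSC table holds signal values, which the authors deposited as read counts divided by a size factor for each library. All 98886 of these (100%) lay within 0.1 of a whole number of reads after rescaling. The PSC table also holds the authors' fold changes, standard errors, test scores and p-values, which were not used, and 7 liver columns of no described sample were not used.

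Liver counts were fitted over all 3 groups with TMM factors in edgeR 4.0.16 (R 4.3.3), after filterByExpr with a minimum count of 10, and PSC values, as log2(value + 1) with a value of at least 10 in 3 or more libraries, in limma 3.58.1. PSC fold changes are on that scale, which understates changes of low genes. The threshold was an adjusted p under 0.05 with an absolute log2 fold change over 1. Alternatives were DESeq2 1.42.0, RLE size factors, no filter, other pseudocounts, edgeR on the recovered PSC reads, a replicate block and a term for sex reads. Fits of only the liver groups compared and fits with each library left out were run as well. Both procedures were tested on simulated data. The common biological coefficient of variation of the livers was 28.3%.

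PSC replicate numbers pair the samples, since cultures of the same number deviated together (correlations of 0.43, 0.26 and 0.53). The labels call the libraries of a group biological replicates, and the PSC columns name 3 preparations. Intervals of 3 counts for a 0 cover counting error only. The genes, their classes, the signaling and marker lists, the motifs and the printed promoters were chosen with earlier results of these data known. Named liver genes were Fcer1g, any gene past the threshold, the 12 with the smallest unadjusted p in each comparison with WT and the 3 highest per length in each class, together 34. In PSCs they were genes past the threshold and the 6 highest per length, and among signaling genes those past the threshold and the 6 with the smallest p. All other genes given with values, such as Fcgr4, Cd300e, Tlr4, Tlr7, Tlr9, Tlr11, Cd300a, Clec11a and Clec7a in liver, Clec4n, Cd300lf, Fcer1g and Clec11a in PSCs and Syk, Myd88, Tirap and Ticam1, were chosen after their values were seen.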

Additional observations from a re-analysis of the deposited data

How the results depend on the processing

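For WT against TRPV4-KO livers, the number of receptor genes called higher was 0 in the edgeR fit and with RLE size factors. It was also 0 in an edgeR fit of only these 2 groups (smallest adjusted p = 0.13, with 0.0745% of all genes called higher). The number was 14 with DESeq2 and 2 without the filter on low counts. It was 9 with a term for sex reads and 9 with the replicate number as a block (2.32% of all genes). Leaving out 1 TRPV4-KO liver at a time gave 0 to 9 (0.0464% to 3.83% of all genes), the 9 coming without TRPV4-KO 3. Cd300ld, Cd300lf, Clec4n and Fcgr1 were called in each of 4 settings, namely DESeq2, the sex term, the block and the fit without TRPV4-KO 3. These 4 settings are those that called the most receptor genes. No WT liver has number 3, so the block leaves TRPV4-KO 3 without a WT liver of its number. With the block Tlr2, Fcgr3 and Clec12a had adjusted p values of 0.07, 0.061 and 0.058 in edgeR. Of the 14 genes called by DESeq2, 8 were also called without TRPV4-KO 3. For WT against GSK219, DESeq2 called 2, Cd300lf and Tlr2. All other settings that kept both WT livers called 0, with at most 0.0595% of all genes called higher. For TRPV4-KO against GSK219 every setting called 0, with at most 0.254% of all genes called higher and 0.274% lower. In PSCs 1 gene was called higher, 2 with the replicate block (1.66% of all genes) and 2 without the fold threshold (2.19% of all genes). With 1 culture left out it was 0 to 1 (0.0534% to 0.756% of all genes), the 0 coming without DMSO 1, DMSO 2, DMSO 3 or Yoda1 2. No receptor gene was called lower under any setting, and no called value changed sign. The cause of these changes was not tested. Liver replicate numbers do not pair the samples, since deviations of same-numbered livers correlated between -0.48 and 0.58, while livers with the same sex reads correlated between 0.15 and 0.63. With 2 WT livers, single-liver changes limit all comparisons with WT.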

Other observations

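Within the livers with Xist reads (1 per group), the median log2 ratio of the 44 receptor genes was 0.84 for WT over TRPV4-KO and 0.73 for WT over GSK219. Among livers with Y-linked reads (1 WT liver against 2) it was 1.10 and 0.96. The median over all genes lay between 0.00 and 0.01 in these 4 comparisons. In either comparison of livers with Xist reads, 36 of the 44 genes had the higher value in WT, against 50% and 50.7% of all genes. In the edgeR fit with a term for sex reads, Clec4g was higher in livers with Xist reads by 0.47 (SE 0.09, adjusted p = 0.031), below the fold threshold, and Fcgr2b by 0.44 (SE 0.10, adjusted p = 0.053). Over all genes, 1.05% were called higher and 0.86% lower in livers with Xist reads.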
